A study of Homo sapiens with 12 samples.

Results

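The genes described here are 47 members of the DNA replication and origin licensing machinery, of 60605 genes in the deposited table. They were taken by symbol from a list of components (origin recognition and licensing factors, the MCM helicase, its activators, the sliding clamp and its loader, the polymerases, Okazaki fragment enzymes, fork protection proteins, E2F transcription factors and chromatin replication factors). The list was chosen with earlier results of these data known. All 47 were found and all passed the filter on low counts. RNA was sequenced from SBC5 cells, a human line of small cell lung cancer, labelled wild type in every library. Cells were given olaparib (1 µM), which inhibits the DNA repair enzymes PARP1 and PARP2, or its solvent DMSO. Gamma radiation (4 Gy) or none came 2 hours later, and RNA was taken after 3 days. The groups are the combination (olaparib and 4 Gy), olaparib (no radiation), radiation (DMSO and 4 Gy) and vehicle (DMSO, no radiation), with 3 libraries each. All groups rest on this single line, and the labels name no clone.

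Replication origins are licensed when the origin recognition complex, CDC6 and CDT1 load the MCM helicase onto DNA, a step that geminin blocks by binding CDT1. CDC45 and the GINS complex then join MCM to form the active helicase, DNA polymerase alpha and primase lay down primers, and polymerases delta and epsilon extend them with the help of the clamp PCNA, which the RFC complex loads. Most of these genes are transcribed in waves by E2F factors at the entry into S phase, so their mRNA levels are commonly used to follow proliferation, and both irradiation and PARP inhibition act on cells that replicate their DNA.

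The promoters of these genes share sequence features that played no part in choosing them. RefSeq promoter windows of 300 bases (250 before the start site and 50 after it, GRCh38.p14) were present for 42 of the 47 genes. MCM4, MCM5, GINS4, POLD3 and E2F8 had none. E2F cores were searched on both strands as the letters TTGGCGC, the letters TTCCCGC, the letters TTGCCGC and the letters TTCGCGC. At least 1 such core was found in 34 of the 42 genes (81.0%), against 4169 of 27305 genes in the whole table (15.3%). CCAAT, the core bound by NF-Y, was found in 26 of 42 (61.9%), against 39.7% of all genes, and the CHR core (letters TTTGAA, or letters TTCGAA) in 2 of 42 (4.76%), against 19.5%. Some of these motifs overlap, since TTCGCGC and a neighbouring CCAAT can share bases. The member windows were richer in G and C (median 65.7%) than all windows (58.7%), which bears on how often GC-rich letters occur. A match describes the letters in the window and not binding of a factor. The matches below are shown for 7 of the 12 genes whose combination and vehicle libraries separate in the results, as examples from both directions, with the core in capitals and each sequence read along the gene's own strand.
DNMT1: catcggtttccGCGCGAAaagccggggcg
MCM7: gggggcgacgtTTCGCGCcaatttcggtt
TIMELESS: ccgcctcgctcTTCGCGCaggcggggacc
CLSPN: actctggctggGCGGGAAagcaagaacag
MCM6: gggctttgcatTTGGCGCgaaatcccttt
CDC6: gccattcggatTTGGCGCgagcgcggctg
MCM10: aatgacgtaaaCCAATccgattgctct
These lie at chr19:10194938-10194966 (minus strand) for DNMT1, chr7:100101388-100101416 (minus) for MCM7, chr12:56449400-56449428 (minus) for TIMELESS and chr1:35769966-35769994 (minus) for CLSPN. The others are at chr2:135876577-135876605 (minus) for MCM6, chr17:40287876-40287904 (plus) for CDC6 and chr10:13161442-13161468 (plus) for MCM10. The DNMT1 core is the reverse complement of TTCGCGC, the core printed in direct form for MCM7 and TIMELESS. The first 3 of these genes were lower, and the other 4 higher, in every combination library than in every vehicle library, so an E2F core is present on both sides. MCM10 had 0 E2F cores and 2 CCAAT matches in its window, 105 and 118 bases before the start site. Of the other genes that separate, LIG1 had 3 E2F core matches, POLE and UHRF1 had 2 each, and FEN1 had 0 matches of any of these motifs. Overlapping matches on the opposite strands were counted separately here, so these are not counts of distinct sites.

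Library totals ran from 14.3 to 38.8 in units of 1e+06 estimated counts, and the lowest count of any of the 47 genes in any library was 32. Totals were 19.4, 20.6 and 19.6 in the combination, below those of vehicle (27.0, 33.7 and 34.1). The TMM scaling factors were 1.057 to 1.085 in the combination and 0.9165 to 0.9455 in vehicle. Depth thus goes with this comparison, and its part was not tested. In olaparib 2, olaparib 3 and radiation 3 the summed CPM (scaled counts per 1e+06) of 404 olfactory receptor genes, which this tissue is not known to use, was 1896.7, 2097.8 and 920.2, against 354.7 to 501.4 in the other 9 libraries. These 3 libraries were set apart by the rule that defines the members, which names them as having high background, and not by this sum. The main tests rest on 9 libraries: 3 combination, 1 olaparib, 2 radiation and 3 vehicle. Within the 9 the same sum was 461.3 to 501.4 in the combination, 384.4 in olaparib, 356.5 and 486.5 in radiation, and 354.7 to 432.6 in vehicle. The cell line label was compared with lineage markers in the 9 libraries: YAP1 (84 to 124 CPM), REST (213 to 248) and SYP (16.4 to 27.3) were present, while INSM1 was at most 0.285 and CHGA at most 0.538 CPM. Of 16 leukocyte, fibroblast, endothelial and airway or alveolar markers, CD68 (at least 78.1 CPM) and COL1A1 (11.7 to 17.3) were the only ones to exceed 3 CPM in any of the 9 libraries. Summed over MKI67, TOP2A and CCNB1, which dividing cells express, the 9 libraries had 1726.6 to 1765.8 CPM in the combination, 1779.7 in olaparib, 1711.2 to 1900.2 in radiation and 1833.5 to 1914.7 in vehicle.

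At 3 days after treatment most of the 47 replication genes stood close to their vehicle levels in the combination. DNMT1, the maintenance DNA methyltransferase, fell. None of the other 46 genes passed the test in either direction. By edgeR's quasi-likelihood test with Benjamini-Hochberg adjustment over 30967 genes, 1 of 47 members was lower and 0 were higher in the combination than in vehicle at an adjusted p under 0.05, where 3.26% of all tested genes were lower and 1.53% higher (4.8% in either direction). At an unadjusted p under 0.05 there were 9 members (4 higher and 5 lower), against 14.4% of all genes. The median log2 fold change was 0.04 over the 47 genes and 0.02 over all genes. Members ran from -0.42 to 0.51, and 46 of 47 lay within 0.5 of 0, against 19771 of 30967 genes tested. The median SE was 0.152 over the 47 genes and 0.465 over all genes, so these counts are not at like precision. In 27 of 47 genes the difference was smaller than 1 SD between libraries of a group. In a wider list of 56 other replication genes, described below, 4 were called higher and 6 lower (1.53% and 3.26% of all genes). In bulk RNA, fewer cells in S phase and less RNA per cell cannot be told apart.

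**Figure D1:**
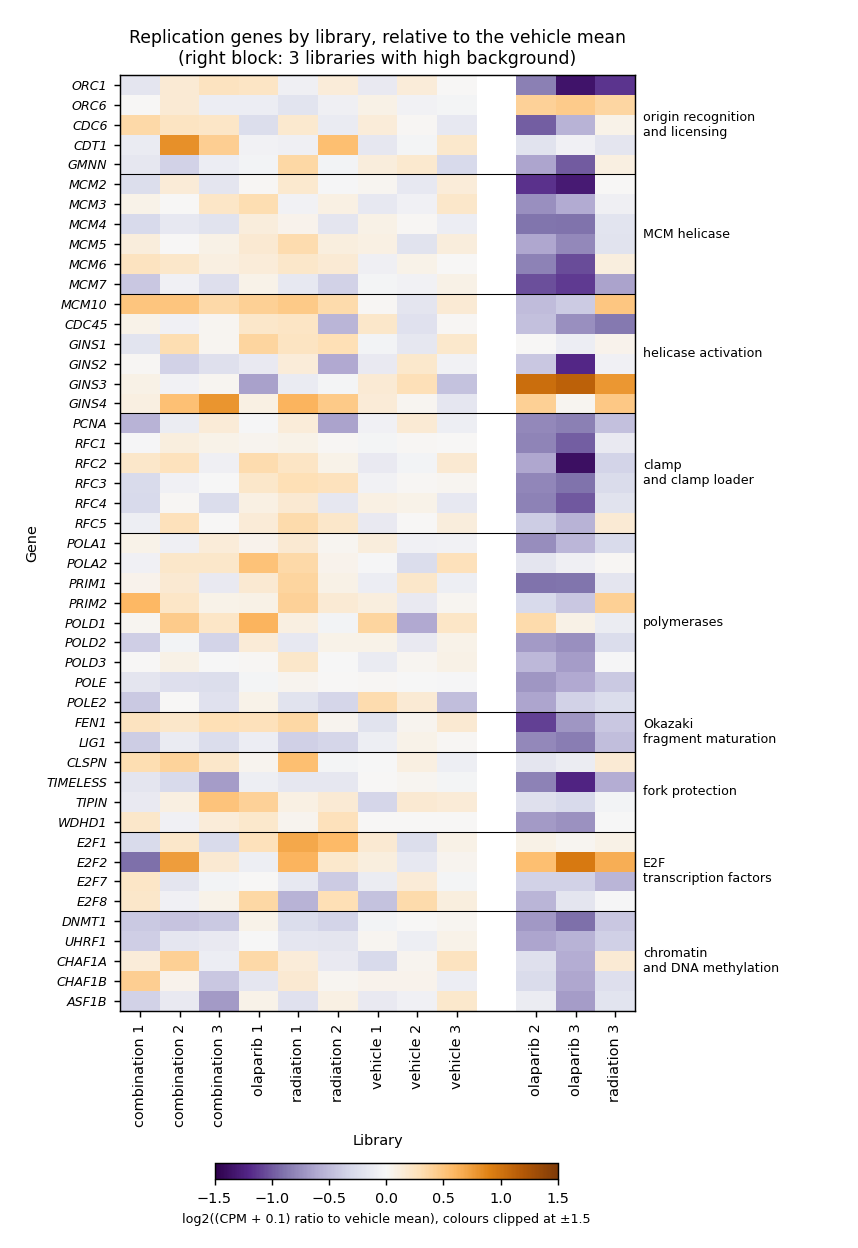
Log2 ratio of each library's CPM (plus 0.1) to the vehicle mean for the 47 replication genes, in rows ordered by role, with the 9 tested libraries on the left and the 3 set-apart libraries on the right. The left block is mostly pale, with DNMT1 lower in all combination libraries (-0.44 to -0.40). Some single cells there are stronger, such as E2F2 in combination 1 (-0.91) and CDT1 in combination 2 (0.81). Most genes of olaparib 2 and olaparib 3 are darker purple (lower), with ORC6, GINS3 and E2F2 in orange (higher).

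DNMT1 (ENSG00000130816) copies methylation marks onto newly made DNA. It had 77.6, 75.4 and 77.3 CPM in the combination, 107.2 in olaparib, 85.8 and 81.5 in radiation and 99.5, 103.5 and 104.6 in vehicle. All combination libraries lay below all radiation libraries, and these below all vehicle libraries, while the olaparib library was the highest. Mean levels were 76.8 ± 1.16 CPM in the combination (SD, n = 3), 83.7 ± 3.01 in radiation (SD, n = 2) and 102.6 ± 2.66 in vehicle (SD, n = 3). The log2 fold change against vehicle was -0.42 in the combination (SE 0.0793, 95% interval -0.58 to -0.26, edgeR adjusted p = 0.00013). In radiation it was -0.29 (SE 0.0886, interval -0.47 to -0.12, edgeR adjusted p = 0.0898), which missed the threshold, although DESeq2 gave an adjusted p of 0.0229. Between combination and radiation the change was -0.12 (SE 0.0884, edgeR adjusted p = 0.71), and in olaparib against vehicle it was 0.06 (SE 0.11, edgeR adjusted p = 1.0). The olfactory receptor sum was higher, and the summed proliferation markers lower, in every combination library than in every vehicle library, and the part of the markers in this fall was not tested. With all 12 libraries and that sum as a covariate, the change was -0.33 (edgeR adjusted p = 0.0327). The call was lost with all 12 libraries and no covariate (-0.42, adjusted p = 1.0) and with scaling to library size alone (-0.22, adjusted p = 0.0622), a scaling that moved the median of all genes to 0.22.

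**Figure D2:**
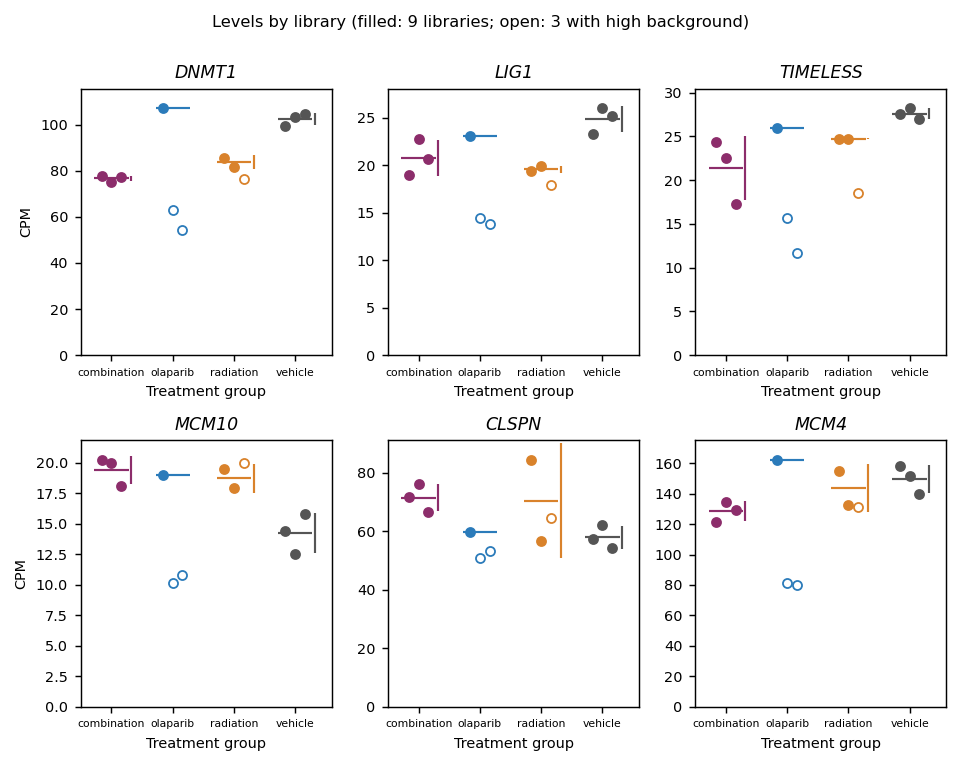
CPM of 6 replication genes by treatment group, each point a library, filled for the 9 tested libraries and open for the 3 set apart, with the mean of the filled points as a horizontal line and ± 1 SD as a vertical bar. DNMT1 sits at 75.4 to 77.6 CPM in the combination and 99.5 to 104.6 in vehicle; MCM10 and CLSPN lie above vehicle in every combination library, and LIG1, TIMELESS and MCM4 below.

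The other chromatin factors had values closer to vehicle. UHRF1, which brings DNMT1 to half-methylated DNA, had 11.4, 13.2 and 13.4 CPM in the combination, 14.7 in olaparib, 13.1 and 13.0 in radiation and 15.1, 13.9 and 15.5 in vehicle. Its combination and radiation libraries all lay below the vehicle libraries, but the change was -0.22 in the combination (SE 0.162, interval -0.55 to 0.10, edgeR adjusted p = 0.623). ASF1B, a chaperone for histones H3 and H4, was measured at a low level: 1.95, 2.29 and 1.52 CPM in the combination, 2.63 in olaparib, 2.13 and 2.68 in radiation and 2.27, 2.41 and 2.88 in vehicle. Its combination and vehicle libraries overlapped, and its interval against vehicle, -1.16 to 0.37, was among the widest of the list. CHAF1A and CHAF1B, subunits of chromatin assembly factor 1, had log2 changes of 0.15 and 0.06 in the combination against vehicle (intervals -0.22 to 0.51 and -0.33 to 0.44).

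Among the 5 origin recognition and licensing genes 0 were called, with a median log2 change of 0.08 in the combination against vehicle. CDC6, an ATPase that helps load MCM, had 22.4, 20.7 and 20.4 CPM in the combination, 14.7 in olaparib, 19.8 and 16.1 in radiation and 19.2, 17.7 and 15.8 in vehicle. Every combination library lay above every vehicle library and above both radiation libraries, and the olaparib library was the lowest of the 9. The change was 0.27 against vehicle (SE 0.143, interval -0.01 to 0.56, edgeR adjusted p = 0.392) and 0.24 against radiation (SE 0.161, edgeR adjusted p = 0.691). CDT1, the partner of CDC6 in loading, had 4.43, 8.52 and 6.56 CPM in the combination, 4.68 in olaparib, 4.57 and 7.12 in radiation and 4.31, 4.72 and 5.54 in vehicle. The combination libraries of CDT1 spread over almost a 2-fold range, and its change of 0.42 against vehicle had an interval of -0.10 to 0.94 (edgeR adjusted p = 0.512). GMNN, which encodes geminin, the inhibitor of CDT1, had 17.2, 15.1 and 18.0 CPM in the combination, 18.8 in olaparib, 24.8 and 18.7 in radiation and 21.0, 21.9 and 15.6 in vehicle. Its combination libraries all lay below its radiation libraries (log2 -0.38, SE 0.163, edgeR adjusted p = 0.419) but overlapped vehicle (-0.22, SE 0.148, edgeR adjusted p = 0.581). ORC1 and ORC6, subunits of the origin recognition complex, differed from vehicle by 0.08 and 0.03 in the combination (intervals -0.33 to 0.49 and -0.18 to 0.23).

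The 6 MCM genes encode the ring of the replicative helicase. Their mRNA point estimates went both ways, and differences between these genes were not tested. MCM6 was higher in every combination library than in every vehicle library, with 78.6, 75.7 and 70.5 CPM in the combination, 72.7 in olaparib, 75.9 and 73.6 in radiation and 62.5, 69.2 and 66.4 in vehicle (log2 0.18, SE 0.0844, edgeR adjusted p = 0.285). MCM4 was lower in every one, with 121.4, 134.4 and 129.5 CPM in the combination, 162.0 in olaparib, 154.8 and 132.3 in radiation and 158.0, 151.6 and 139.8 in vehicle (-0.22, SE 0.0764, edgeR adjusted p = 0.0828). MCM7 was also lower, with 59.3, 75.5 and 67.3 CPM in the combination, 83.2 in olaparib, 71.6 and 62.7 in radiation and 77.6, 76.6 and 83.7 in vehicle (-0.24, SE 0.0874, edgeR adjusted p = 0.122). None of these 3 differences passed the threshold after adjustment. MCM2 had 27.4, 36.3 and 28.8 CPM in the combination, 33.1 in olaparib, 36.9 and 32.2 in radiation and 33.2, 29.4 and 35.6 in vehicle. MCM5 had 23.0, 21.4 and 22.4 CPM in the combination, 23.9 in olaparib, 26.5 and 22.9 in radiation and 22.6, 18.4 and 23.0 in vehicle. Groups overlapped for both, with changes of -0.08 for MCM2 (interval -0.31 to 0.14) and 0.06 for MCM5 (interval -0.20 to 0.33) in the combination, and MCM3 differed by 0.09 (interval -0.13 to 0.31).

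In the combination against vehicle, helicase activation held the largest positive estimates. MCM10 (ENSG00000065328), which binds the MCM ring and is needed for it to start unwinding, had 20.2, 20.0 and 18.1 CPM in the combination, 19.0 in olaparib, 19.5 and 17.9 in radiation and 14.4, 12.5 and 15.8 in vehicle. All 6 treated libraries lay above all 3 vehicle libraries. The log2 change against vehicle was 0.45 in the combination (SE 0.147, interval 0.16 to 0.74, edgeR adjusted p = 0.0609), 0.41 in olaparib (SE 0.2, edgeR adjusted p = 1.0) and 0.39 in radiation (SE 0.162, edgeR adjusted p = 0.352). Just short of the threshold in the combination, it passed under DESeq2 (adjusted p = 0.0269) and with a stricter filter of 1 CPM in at least 3 libraries (edgeR adjusted p = 0.0413). GINS4, a subunit of the GINS complex, had 5.21, 7.04 and 8.46 CPM in the combination, 5.18 in olaparib, 7.43 and 6.71 in radiation and 5.37, 4.94 and 4.29 in vehicle. Its point estimate was the largest of the 47 genes in the combination (0.51, SE 0.245, interval 0.02 to 0.99, edgeR adjusted p = 0.321), and 1 combination library overlapped vehicle. CDC45, which joins MCM and GINS in the active helicase, had 9.59, 8.79 and 9.45 CPM in the combination, 10.7 in olaparib, 10.8 and 6.35 in radiation and 10.6, 7.88 and 9.38 in vehicle. The combination libraries of CDC45 sat inside the vehicle range, with an interval of -0.41 to 0.40. GINS1, GINS2 and GINS3 had changes of 0.06, -0.19 and -0.01 against vehicle, with SEs of 0.253, 0.24 and 0.32.

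The clamp and its loader gave 0 calls, with changes in the combination from -0.18 to 0.13. PCNA, the sliding clamp, had 10.9, 14.8 and 17.7 CPM in the combination, 15.8 in olaparib, 17.6 and 10.2 in radiation and 15.2, 17.9 and 14.9 in vehicle. Treated libraries lay below or inside the vehicle range, and the change in the combination was -0.15 (SE 0.181, interval -0.52 to 0.22). RFC1, the large subunit of the clamp loader, had 131.9, 144.7 and 140.2 CPM in the combination, 137.6 in olaparib, 141.3 and 135.7 in radiation and 131.4, 136.5 and 134.7 in vehicle. RFC1 was thus steady across the 9 libraries, with intervals of -0.10 to 0.20 in the combination and -0.12 to 0.21 in radiation. RFC3, a small subunit of the loader, had 13.0, 15.1 and 15.8 CPM in the combination, 18.4 in olaparib, 19.7 and 19.1 in radiation and 15.4, 16.1 and 16.3 in vehicle. Olaparib and radiation libraries of RFC3 all lay above vehicle, and the combination libraries did not. RFC2, RFC4 and RFC5 differed from vehicle by 0.13, -0.18 and 0.07 in the combination, with edgeR adjusted p-values of 0.825, 0.47 and 0.938.

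Of the 9 polymerase and primase genes 0 were called. POLE, the catalytic subunit of polymerase epsilon, which copies the leading strand, had 47.3, 45.4 and 45.2 CPM in the combination, 52.5 in olaparib, 55.1 and 54.0 in radiation and 54.5, 53.3 and 52.9 in vehicle. Its combination libraries lay below the other 6, and the spread within groups was the smallest of the 47 genes. The change was -0.22 against vehicle (SE 0.093, edgeR adjusted p = 0.207) and -0.25 against radiation (SE 0.103, edgeR adjusted p = 0.377). POLA1, the catalytic subunit of polymerase alpha, had 51.0, 46.2 and 53.7 CPM in the combination, 50.5 in olaparib, 55.0 and 49.8 in radiation and 52.9, 46.4 and 47.1 in vehicle. POLE2, an accessory subunit of polymerase epsilon, had 5.31, 7.04 and 6.03 CPM in the combination, 7.36 in olaparib, 6.13 and 5.65 in radiation and 8.86, 7.88 and 5.03 in vehicle. Groups overlapped for both, with intervals against vehicle of -0.15 to 0.24 for POLA1 and -0.71 to 0.23 for POLE2 in the combination. POLA2, the regulatory subunit of polymerase alpha, had 7.4, 8.92 and 9.03 CPM in the combination, 11.2 in olaparib, 9.87 and 8.03 in radiation and 7.64, 6.46 and 9.47 in vehicle. POLD1, the catalytic subunit of polymerase delta, had 6.48, 8.7 and 7.36 CPM in the combination, 9.8 in olaparib, 6.8 and 6.16 in radiation and 8.27, 4.15 and 7.36 in vehicle. The single olaparib library was the highest of the 9 for both genes. In the combination, the primase subunits PRIM1 and PRIM2 had changes of 0.03 and 0.30 and the polymerase delta subunits POLD2 and POLD3 of -0.24 and 0.02 (edgeR adjusted p = 0.407 or more for each).

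Okazaki fragments are finished by FEN1, which removes the primer flap, and LIG1, which seals the nick, and their point estimates went opposite ways. LIG1 had 19.0, 22.8 and 20.7 CPM in the combination, 23.1 in olaparib, 19.4 and 19.9 in radiation and 23.3, 26.0 and 25.2 in vehicle. All 6 treated libraries lay below all 3 vehicle libraries, the reverse of MCM10. The change was -0.25 in the combination (SE 0.131, interval -0.51 to 0.01, edgeR adjusted p = 0.371) and -0.34 in radiation (SE 0.146, interval -0.63 to -0.05, edgeR adjusted p = 0.392). FEN1 had 9.35, 9.06 and 9.74 CPM in the combination, 9.49 in olaparib, 10.1 and 8.07 in radiation and 6.82, 8.07 and 8.87 in vehicle. Its combination libraries all lay above vehicle, by 0.24 (SE 0.201, edgeR adjusted p = 0.708).

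Fork protection genes also split. CLSPN (ENSG00000092853), which encodes claspin, an adaptor that the ATR pathway uses to activate CHK1 at stalled forks, had 71.8, 76.0 and 66.6 CPM in the combination, 59.6 in olaparib, 84.3 and 56.5 in radiation and 57.5, 62.0 and 54.2 in vehicle. The combination libraries were above vehicle, whereas 1 radiation library was the highest of the 9 and the other lay within vehicle. The change was 0.30 in the combination (SE 0.108, interval 0.08 to 0.52, edgeR adjusted p = 0.123) and 0.28 in radiation (SE 0.119, edgeR adjusted p = 0.406). Without radiation 2, the radiation value became 0.56 (edgeR adjusted p = 0.00447), and the combination value of 0.29 passed too (edgeR adjusted p = 0.0251). TIMELESS, which holds the helicase and polymerases together at the fork, had 24.4, 22.5 and 17.3 CPM in the combination, 25.9 in olaparib, 24.7 in both radiation libraries and 27.5, 28.2 and 27.0 in vehicle. The combination libraries lay below all the others (-0.37, SE 0.127, interval -0.62 to -0.11, edgeR adjusted p = 0.0852), 1 of them well below. TIPIN, the partner of TIMELESS, did not follow it (0.17, interval -0.32 to 0.66), and WDHD1, which links polymerase alpha to the helicase, differed by 0.10 (interval -0.14 to 0.33).

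Of the 4 E2F genes 0 were called, and E2F1 and E2F2 were among the least precise of the list. E2F1, an activator of replication genes, had 1.66, 2.38 and 1.66 CPM in the combination, 2.5 in olaparib, 3.33 and 3.12 in radiation and 2.31, 1.71 and 2.18 in vehicle. Both radiation libraries were the highest of the 9, yet the change against vehicle of 0.64 had an interval of -0.19 to 1.47 (edgeR adjusted p = 0.673). E2F8, a repressor of the same targets, had 6.87, 5.65 and 6.22 CPM in the combination, 7.62 in olaparib, 4.0 and 7.3 in radiation and 4.31, 7.47 and 6.4 in vehicle, and all groups with several libraries overlapped. E2F7, also a repressor, had 14.7, 11.1 and 12.3 CPM in the combination, 12.6 in olaparib, 11.3 and 9.58 in radiation and 11.6, 13.9 and 12.3 in vehicle. Radiation libraries of E2F7 lay below vehicle (-0.27, SE 0.193, edgeR adjusted p = 0.722), with no such separation in the combination. E2F2, an activator, ran from 1.8 to 5.87 CPM among the combination libraries and from 3.13 to 3.76 in vehicle.

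**Figure D3:**
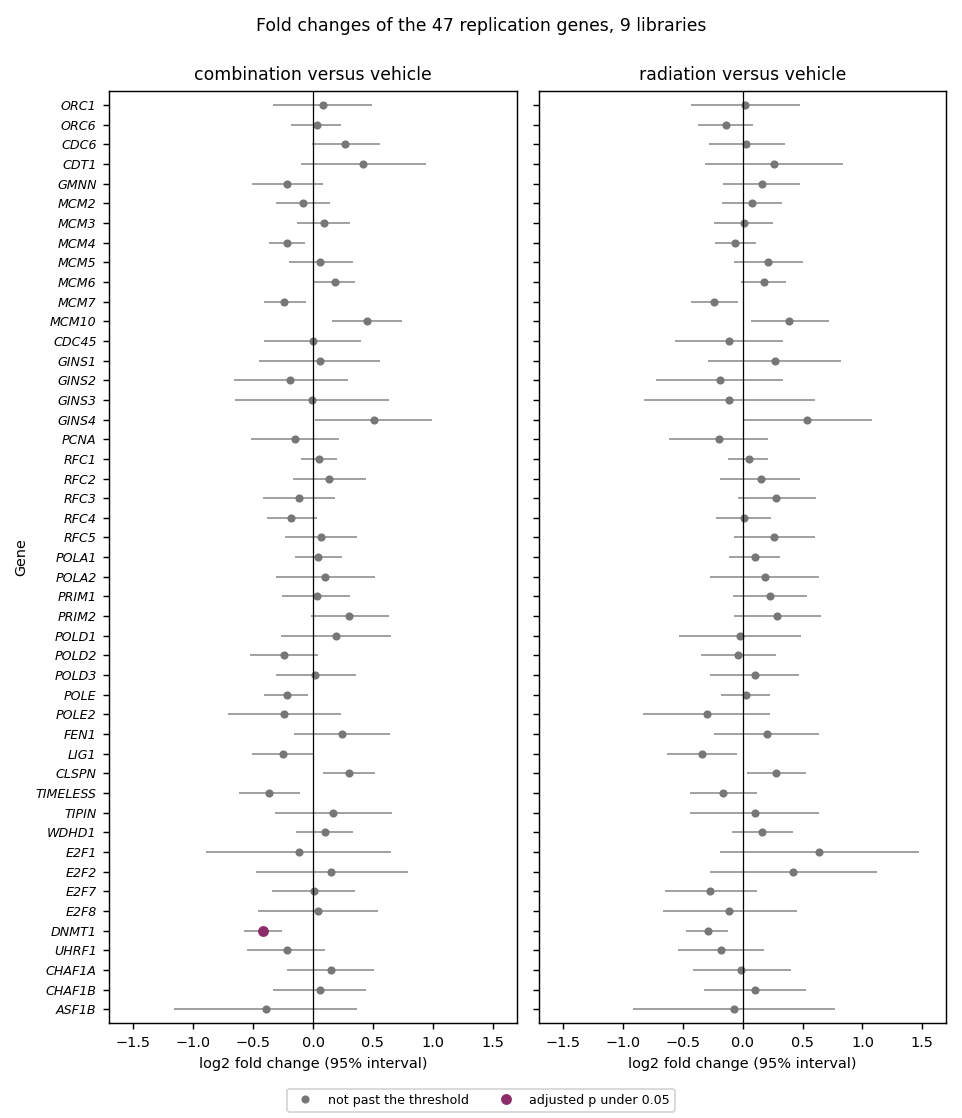
Log2 fold change of each of the 47 genes with its 95% interval, for the combination against vehicle (left) and radiation against vehicle (right), from the 9 libraries. DNMT1 in the combination (-0.42) is the only point past the threshold on the adjusted p, and 46 genes on the left and 45 on the right lie within 0.5 of 0.

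Groups that did not overlap were counted for each comparison, and their shares can be read against all genes. In the combination against vehicle 5 members (MCM10, MCM6, CLSPN, CDC6 and FEN1) were higher in every library, against 9.15% of all tested genes, and 7 (MCM4, LIG1, TIMELESS, DNMT1, MCM7, POLE and UHRF1) were lower in every library, against 10.4%. For radiation against vehicle the counts were 10 higher (11.7% of all genes) and 7 lower (13.5%). With the single olaparib library the condition is easily met, and 22 members were above the vehicle range (24.4% of all genes) and 7 below it (21.1%). For the combination against radiation 1 member was higher (12.2% of all genes) and 6 were lower (11.9%). In olaparib against vehicle 34 of 47 members had estimates above 0, against 14643 of 30967 genes tested. These signs all rest on the same 1 olaparib library.

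Radiation alone against vehicle gave 0 of 47 calls with edgeR, where 0.42% of all genes were higher and 0.678% lower (1.1% in either direction). At an unadjusted p under 0.05 there were 6 members (3 higher: MCM10, GINS4 and CLSPN, and 3 lower: DNMT1, LIG1 and MCM7), against 9.68% of all genes, and DESeq2 called 1 (DNMT1) and limma-voom 0. The median change over the 47 genes was 0.05, against -0.03 over all genes. The comparisons of the combination and of radiation share the 3 vehicle libraries, so their likeness cannot be read as repetition: MCM10 had 0.45 and 0.39, GINS4 0.51 and 0.54, DNMT1 -0.42 and -0.29, MCM7 -0.24 and -0.24, and LIG1 -0.25 and -0.34 in the combination and in radiation, each against vehicle. POLE differed in sign, at -0.22 in the combination and 0.03 in radiation.

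Olaparib alone, with 1 library outside the set-apart ones, gave 0 calls with edgeR, where 0.00969% of all genes were higher and 0.0581% lower (0.0678% in either direction). The spread of that library was taken from the other groups. DESeq2 and limma-voom called 0 as well, and 1 member (MCM10, higher) had an unadjusted p under 0.05, against 3.34% of all genes. The largest estimates were POLD1 (0.58, SE 0.31), POLA2 (0.51, SE 0.277) and, downwards, GINS3 (-0.71, SE 0.468) and CDC6 (-0.25, SE 0.204), all with an edgeR adjusted p of 1.0. GINS3, a GINS subunit, had 3.7, 3.36 and 3.56 CPM in the combination, 2.18 in olaparib, 3.2 and 3.41 in radiation and 3.92, 4.27 and 2.53 in vehicle, so the olaparib library was the lowest of the 9. The median over the 47 genes was 0.08, against -0.02 over all genes. With olaparib 2, olaparib 3 and radiation 3 added, its sign turned (-0.36, against 0.39 over all genes).

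The combination against radiation asks what olaparib adds in irradiated cells. It gave 0 calls with edgeR (where 0.142% of all genes were higher and 0.426% lower, 0.568% in either direction) and 0 with DESeq2 and limma-voom. At an unadjusted p under 0.05 there were 3 members, all lower in the combination (RFC3, POLE and GMNN), against 9.54% of all genes in either direction. RFC3 had the lowest adjusted p (log2 -0.40, SE 0.166, edgeR adjusted p = 0.366), and E2F1 the largest estimate (-0.76, SE 0.421, interval -1.60 to 0.08, edgeR adjusted p = 0.583). All 3 combination libraries of E2F1 lay below both radiation libraries. The largest positive estimate was E2F7 (0.27, SE 0.195), with CDC6 next (0.24). The median over the 47 genes was -0.01, against 0.03 over all genes.

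Whether olaparib acts differently with radiation was asked by the interaction term, which again rests on the 1 olaparib library. With edgeR 0 of 47 members passed, where 0.0969% of all genes passed upwards and 0.103% downwards (0.2% in all), and DESeq2 and limma-voom also called 0. At an unadjusted p under 0.05 there were 2 members, RFC3 (-0.61, SE 0.263, edgeR adjusted p = 0.594) and MCM4 (-0.27, SE 0.136, edgeR adjusted p = 0.693), against 7.18% of all genes. Estimates below 0 were found for 37 of 47 genes, against 14002 of 30967 genes tested. The median over the 47 genes was -0.18, against 0.07 over all genes. All 6 MCM genes were below 0 (-0.32 to -0.07). With all 12 libraries, which adds olaparib 2 and olaparib 3, the sign of that median turned (0.37, against -0.39 over all genes). Beside RFC3, the extremes were E2F1 (-1.04, SE 0.666), POLA2 (-0.59, SE 0.361), GINS1 (-0.59, SE 0.443), CDC6 (0.49, SE 0.26) and GINS3 (0.81, SE 0.587).

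Spread between libraries of a group set what could be seen. The median SD within groups on the log2 scale was 0.173 over the 47 genes, against 0.192 over genes at similar levels. It was narrowest for POLE (0.0287), DNMT1 (0.036) and RFC1 (0.0497), and widest for E2F2 (0.553), E2F8 (0.381) and CDT1 (0.373). The difference of -0.42 in DNMT1 was far outside its spread, while that of 0.42 in CDT1 was close to it. The median SE of the 47 genes was 0.152 for the combination and 0.169 for radiation against vehicle, 0.208 for olaparib against vehicle, 0.17 for the combination against radiation and 0.269 for the interaction.

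The 3 set-apart libraries had most replication genes below vehicle. Against the vehicle mean, the median log2 ratio of the 47 genes was -0.61 in olaparib 2 (7 genes above and 40 below), -0.61 in olaparib 3 (6 above and 41 below) and -0.13 in radiation 3 (16 above and 31 below). Over the 14657 genes with at least the vehicle level of the lowest member (2.07 CPM), these medians were -0.48, -0.54 and -0.14. Scaled by library size alone, the medians of the 47 genes were 0.03, 0.12 and 0.18, which turns the sign. The 47 genes took 0.119%, 0.121% and 0.131% of all counts in these libraries, against 0.126% to 0.138% in the combination and 0.115% to 0.119% in vehicle. The proliferation markers MKI67, TOP2A and CCNB1 were all below the other 9 libraries here, with a sum of 871.0 to 1510.5 CPM. Markers of other cell types ran the other way: 3 of 3 endothelial, 3 of 3 epithelial, 4 of 5 leukocyte, 3 of 4 fibroblast and 3 of 4 airway and alveolar markers were above all 9 in all 3 libraries, the endothelial sum standing at 8.42 to 22.0 CPM. The leukocyte sum, most of which is CD68, went the opposite way, at 51.4 to 70.5 CPM in these libraries, against 81.6 to 101.3 in the combination and 81.6 to 98.9 in vehicle, and CD68 itself was below all 9. The part of the high background in these differences was not tested.

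Several genes carried that shift, and a few did not. DNMT1 had 62.9 and 54.4 CPM in olaparib 2 and 3, against 107.2 in olaparib 1, and 76.7 in radiation 3, against 85.8 and 81.5 in the other radiation libraries. MCM6 had 37.3, 31.9 and 71.0 CPM and RFC1 76.9, 68.1 and 122.6 in olaparib 2, olaparib 3 and radiation 3. All 3 genes were lower in olaparib 2 and olaparib 3 than in any of the 9. CLSPN had 50.9, 53.4 and 64.5 CPM in olaparib 2, olaparib 3 and radiation 3. It was also below all 9 in olaparib 2 and olaparib 3, but stayed nearer to them (lowest of the 9, 54.2 CPM). ORC6, the smallest subunit of the origin recognition complex, had 52.7, 54.4 and 51.8 CPM in these 3 libraries, against 34.9 to 44.5 in the other 9. GINS3 had 7.27, 7.73 and 6.06 CPM in them, against 2.18 to 4.27 in the other 9. E2F2 had 5.15, 6.87 and 5.51 CPM in olaparib 2, olaparib 3 and radiation 3, against 3.13 to 3.76 in vehicle, and with ORC6 and GINS3 made 3 members above all vehicle libraries in all 3, where 29.9% of all tested genes were. ORC6 and GINS3 were the only 2 of the 47 genes above all 9 in all 3 libraries, where 20.6% of all tested genes were, and 9 members were below all 9, where 12.1% of all genes were. In both olaparib 2 and olaparib 3, 2 members lay above and 29 below the other 9, against 31.9% and 23.6% of all genes.

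**Figure D4:**
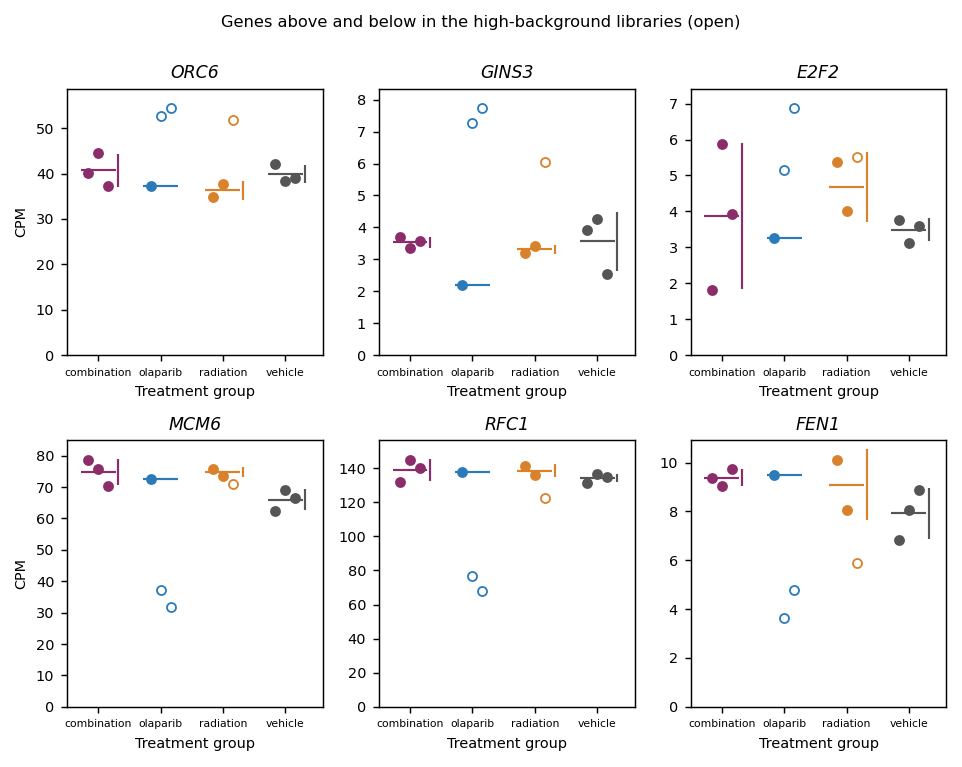
CPM of ORC6, GINS3 and E2F2 (top) and MCM6, RFC1 and FEN1 (bottom) by treatment group, with open points for olaparib 2, olaparib 3 and radiation 3, filled points for the other 9 libraries, and the mean (line) and ± 1 SD (bar) of the filled points. Open points of ORC6 and GINS3 lie above every filled point, and those of RFC1 and FEN1 below every filled point, with the olaparib ones farthest away.

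A wider list of 56 other replication genes, all of them tested, was counted beside the members. In the combination against vehicle 4 were higher (1.53% of all genes) and 6 lower (3.26% of all genes) by edgeR at an adjusted p under 0.05, and 0 in each of the other comparisons. At an unadjusted p under 0.05 there were 8 in radiation against vehicle (9.68% of all genes), 5 in olaparib against vehicle (3.34%), 7 in the combination against radiation (9.54%) and 5 in the interaction (7.18%). The combination against vehicle had 19 at that level (10 higher and 9 lower), against 14.4% of all genes. DBF4, the activating subunit of the CDC7 kinase that fires licensed origins, rose: 156.7, 128.1 and 140.5 CPM in the combination, against 107.9, 110.7 and 99.2 in vehicle (log2 0.42, SE 0.0793, edgeR adjusted p = 0.000118). CCNE2, cyclin E2 of the G1/S transition, rose as well: 14.8, 12.6 and 16.4 CPM in the combination, against 8.54, 7.88 and 10.0 in vehicle (0.73, SE 0.178, edgeR adjusted p = 0.00465). The combination libraries of both genes lay above all vehicle libraries. TFDP2, the dimerization partner of E2F proteins, fell (-0.31, edgeR adjusted p = 0.00347), as did RBL2, the p130 repressor of E2F targets (-0.29, edgeR adjusted p = 0.00653), TOP1, which relaxes DNA ahead of the fork (-0.30, edgeR adjusted p = 0.00677), and RBBP4, a histone-binding subunit of chromatin assembly factor 1 (-0.28, edgeR adjusted p = 0.0111). The other 4, named after their values were seen, were E2F6 (0.46) and POLE3 (0.31), which rose, and CCNA2 (-0.32) and MCMBP (-0.27), which fell. With all 12 libraries 0 of these 10 calls were kept, with the covariate fit 3, with library size alone 4 and with limma-voom 6, and all 10 kept their sign in each. Calls kept without vehicle 1, vehicle 2 or combination 3 were 6, and without combination 2 they were 4. CDKN1A, the p53 target that blocks entry into S phase, had 1.95, 2.82 and 2.0 CPM in the combination and 0.98, 0.823 and 0.48 in vehicle (1.57, SE 0.519, edgeR adjusted p = 0.0649), and was also named after its value was seen.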

How the data were processed

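RNA-seq values were deposited by the authors as 1 table of estimated counts (expected counts per Ensembl gene) for 12 libraries. Per the submitters' processing notes, kallisto 0.46.1 and DESeq2 were used. Per the labels' protocols, the libraries were stranded total RNA. The release of the transcriptome is not given in the sources used here, nor is the build. Of the values 68.8% were whole to within 1e-06. The 44 rows for chromosome Y copies of pseudoautosomal genes were summed with those of chromosome X, so that 60605 genes remained of 60649 IDs (60463 with a symbol), and estimates were rounded.

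The 9 libraries other than olaparib 2, olaparib 3 and radiation 3 were fitted in R 4.3.3 with edgeR 4.0.16 (default filter on low counts, TMM scaling, a mean for each group and a robust quasi-likelihood F-test), with Benjamini-Hochberg adjustment over 30967 genes and a threshold of 0.05. A fold change is log2 of the first group over the second, the SE divides that change by the root of F, and intervals are 95%. CPM of the 3 set-apart libraries were scaled against the same reference library. Alternatives used limma 3.58.1 and DESeq2 1.42.0. The code was tested on simulated data. The sources do not say that libraries came from separate cultures, so p-values measure the spread between libraries. CPM is not per length, so levels are not compared between genes. Fractional counts, which reads shared between genes give, occurred in 35 members. The 9 named pseudogene copies of members had at most 14 counts in the 9 libraries. The promoter table is RefSeq's (GRCh38.p14).

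The members, lists and tests were chosen with earlier results of these data known. Values in every library were given for members called in any comparison, for the 2 largest rises and falls per comparison and for 17 genes fixed by name. Wider-list genes were named if called, at most 6 per comparison by smallest p. Others are given by role, with values where libraries separated.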

Additional observations from a re-analysis of the deposited data

Results flagged for a closer look

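Among the 3 libraries left out of the tests, 3 of the 47 replication genes were above every vehicle library in all 3, where 29.9% of all tested genes were. ORC6 was at least 51.8 CPM in these libraries (highest 54.4), against 38.4 to 42.2 in vehicle. GINS3 was at least 6.06 CPM (highest 7.73), against 2.53 to 4.27 in vehicle. E2F2 was at least 5.15 CPM (highest 6.87), against 3.13 to 3.76 in vehicle, and 2 of the other tested libraries reached the same range, combination 2 with 5.87 CPM and radiation 1 with 5.37. The part of the high background of these libraries in the 3 genes was not tested.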

How the results depend on the processing

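For the combination against vehicle, where 1 member was called, the number called was 0 with all 12 libraries and 0 with the replicate block on all 12. It was 2 with each of these: the olfactory receptor sum as covariate (12 libraries), no count filter, 1 CPM in at least 3 libraries, DESeq2, and the compared groups alone. With library size only it was 6, all higher (CDC6, CLSPN, MCM10, MCM6, PRIM2 and RFC1), and the median of all genes moved to 0.22 and that of the members to 0.24. Leaving out each library in turn gave 1 to 3, and DNMT1 kept its call each time; the added calls were CLSPN without radiation 1 or 2, MCM4 without radiation 2, TIMELESS without combination 1 and MCM7 without combination 2. For radiation against vehicle, with 0 calls, DESeq2 gave 1 (DNMT1) and leaving out each library 0 to 1 (CLSPN without radiation 2). Every other count stayed at 0, and no called change turned its sign. The member median turned sign with all 12 libraries in olaparib against vehicle (-0.36, not 0.08) and in the interaction (0.37, not -0.18), with the replicate block on all 12 in these (-0.40 and 0.40) and in radiation against vehicle (-0.02, not 0.05), in the combination against radiation with library size only (0.08, or 0.01 on all 12 libraries) and without radiation 1 (0.03, not -0.01), and without combination 2 in the combination against vehicle (-0.01, not 0.04). Scaling all 12 libraries by size alone, an alternative chosen after seeing the data, gave 1 call (MCM10) in the combination. Whether the replicate numbers pair libraries could not be decided, since the group means behind the deviations include the set-apart libraries. Deviations of same-numbered libraries correlated at -0.383 to 0.615, and those of differently numbered libraries at -0.724 to 0.62. Among pairs without a set-apart library these ranges were -0.277 to 0.537 and -0.134 to 0.444. Of 12 libraries, 4 were closest to their own number. With the replicate block 2 members were called in the combination against vehicle (DNMT1 and CLSPN), and the other comparisons kept 0. Over all genes, calls in the combination against vehicle numbered 1485, but 1 with all 12 libraries and 2594 with library size only. Of the log2 changes of the 25 members given in full, 4 lost a call (DNMT1 each time), 15 gained one, 125 uncalled ones (medians over the members included) turned sign or moved by over 1 SD between libraries, and 2508 did none of these. Without olaparib 1, no olaparib or interaction value can be had, and the compared groups alone do not apply to the interaction. E2F1 and ASF1B, with mean levels of 1.9 to 3.23 CPM, are limited by depth. The causes of these changes were not tested.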
